A study of Mus musculus with 6 samples.

Results

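The transcripts described here are those of 7 mouse genes that are read as markers of glia, found in MARIO libraries of the brain. They are *Slc1a2*, *Glul*, *Mbp*, *Aldoc*, *Cst3*, *Apoe* and *Gfap*. MARIO joins RNA fragments that lie on the same protein: RNA is crosslinked to protein, the proteins are held on beads, and nearby RNA ends are ligated through a linker into a chimera whose fragment before the linker is called RNA1 and whose fragment after it is called RNA2. Both brain libraries, brain 1 and brain 2, were made from the whole brain of 1 adult C57BL/6J female, ground to powder and irradiated 3 times with 400 mJ/cm2 of ultraviolet light at 254 nm, and the labels call them technical replicates. The comparison library, ES indirect, came from a culture of embryonic stem (ES) cells, the 129/Ola line E14, crosslinked with formaldehyde and EGS, sonicated to about 1000 nt and depleted of ribosomal RNA with a duplex-specific nuclease. Tissue, crosslinker and fragmentation therefore differ between brain and ES indirect and cannot be told apart. No difference between them was tested, because the brain is 1 animal and ES indirect is 1 library.

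A read pair was counted for a gene when either fragment lay in it by its stated GRCm38 position or by its sequence. The unit throughout is the distinct pair of coordinates, that is, the chromosome, start, end and strand of both fragments, so that repeated lines count as 1. Of 747404 distinct pairs in both brain files together, 3425 (0.458%) had an end in 1 of the 7 genes. They stood on 8733 of 2160261 lines. Of 14998 protein-coding genes that had a brain pair, these are 7, and the median gene had 12 distinct pairs.

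Astrocytes take up glutamate released by neurons and convert it to glutamine, which is passed back to neurons. *Slc1a2* encodes their main glutamate transporter (GLT-1) and *Glul* encodes glutamine synthetase. *Gfap* encodes the intermediate filament of astrocytes, *Aldoc* a brain form of the glycolytic enzyme aldolase and *Apoe* the lipid carrier apolipoprotein E. *Cst3* encodes cystatin C, a secreted inhibitor of cysteine proteases that is made by astrocytes and microglia. *Mbp* encodes myelin basic protein, which oligodendrocytes make at the myelin sheath, to which its mRNA is carried before translation.

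Sequences that show how both fragments of a pair lay in 1 transcript are given first. In a part of the read pairs, RNA2 lay upstream of RNA1 in the gene and ended at the base before RNA1 began. The last 30 bases of RNA2 and the first 30 bases of RNA1 are shown for such a pair in the coding exons of 3 members. They are written as RNA from 5′ to 3′ with T for U. The capitals mark the 8 bases on each side of the point where both fragments abut in the gene. In a chimera of RNA1, linker and RNA2 these are the outer ends, so the ends joined to the linker are not shown.
Slc1a2, RNA2: tgcgcatgcatgacagccacctCAGCTCCG
Slc1a2, RNA1: ATGAGCCAaagcaccgaaacctgggcatgc
Aldoc, RNA2: gaccgtgtgaaaaagtgcattgGGGGGGTC
Aldoc, RNA1: ATCTTCTTccatgagacactctaccagaaa
Apoe, RNA2: ggagatcttccaggcccgcctcAAGGGCTG
Apoe, RNA1: GTTCGAGCcaatagtggaagacatgcatcg

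The *Slc1a2* bases lie on the plus strand of GRCm38 at chr2:102735973-102736002 (RNA2) and chr2:102736003-102736032 (RNA1), and this pair was on 3 lines. Those of *Aldoc* lie on the plus strand at chr11:78324693-78324722 and chr11:78324723-78324752, on 4 lines. Those of *Apoe* lie on the minus strand at chr7:19696495-19696524 and chr7:19696465-19696494, on 1 line. In each case the genome runs without a gap from RNA2 into RNA1, whereas the files give RNA1 as the fragment before the linker and RNA2 as the one after it.

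The glutamate transporter gene *Slc1a2* (chr2:102658239-102790784) held most of the pairs. Its 2308 distinct pairs ranked 4 among the protein-coding genes and came to 3088 per 1000000 distinct pairs (95% Wilson interval 2965 to 3216). Brain 1 held it on 2993 lines and brain 2 on 3324 lines, and 1500 of the pairs were in both files. Intervals here and below cover counting error only and say nothing of differences between animals, and in whole brain fewer cells of a type and less RNA per cell cannot be told apart.

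The other astrocyte and oligodendrocyte genes held far fewer. *Glul* (chr1:153899929-153909723) had 355 distinct pairs, on 433 lines of brain 1 and 448 of brain 2. *Mbp* (chr18:82475091-82585637) had 327 pairs, on 336 and 325 lines. *Aldoc* (chr11:78323073-78327781) had 162 pairs, on 166 and 172 lines. These counts were close to each other in both libraries, whose deposited read pairs fill 1045814 and 1114447 lines.

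*Cst3* (chr2:148871722-148875512) had 126 distinct pairs, on 118 lines of brain 1 and 129 of brain 2. *Apoe* (chr7:19696244-19701310) had 82 pairs, on 63 and 75 lines. *Gfap* (chr11:102887336-102897200) had the fewest, 65 pairs, on 70 and 81 lines. The intervals of the rates per 1000000 of *Apoe* (88.4 to 136) and *Gfap* (68.2 to 111) overlapped, as did those of *Glul* (428 to 527) and *Mbp* (393 to 488).

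The order changed when the count was set against the length of exon in each gene. *Slc1a2* stayed at the top with 189 pairs per kb of exon, but the short *Cst3* transcript followed with 137, and *Glul* with 123. *Aldoc* had 54.4, *Apoe* 41.4 and *Mbp* 40.6 pairs per kb of exon. *Gfap* was again lowest with 15.96. Exon length is the union over all annotated transcripts, so a gene with rare long transcripts is set low on this scale.

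**Figure D1:**
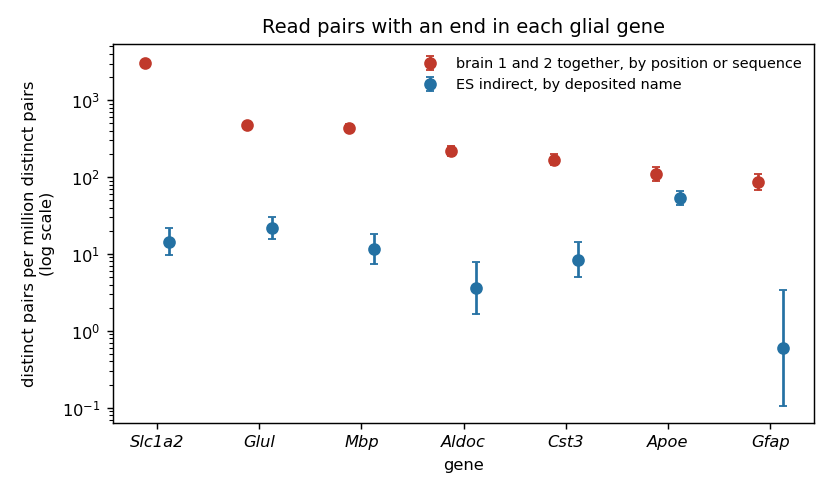
Distinct read pairs with an end in each gene per 1000000 distinct pairs (log axis), in both brain libraries together (red) and in ES indirect (blue); bars are 95% Wilson intervals. *Slc1a2* stands at 3088 per 1000000 in brain and *Apoe* is the gene whose brain and ES indirect values lie closest, at 110 and 53.8. Most brain pairs have both fragments in the gene, and most ES indirect pairs do not.

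Fragments of these genes lay in exons and on the strand of the gene. Of 6570 ends, 6514 were sense (99.1%, interval 98.9 to 99.3), against 96.9% over all protein-coding genes. Intervals of shares of ends treat both ends of a pair as independent. Both ends mostly lay in the same class, so these intervals are too narrow even for counting error. Of the 6099 ends that could also be placed in the gene by sequence, 66.1% lay in a 3′ untranslated region (UTR), 27.0% in a coding exon, 1.02% in a 5′ UTR and 5.69% in an intron. Over all protein-coding genes these shares were 20.7%, 36.1%, 1.80% and 40.0%. The large share of 3′ UTR ends was that of *Slc1a2*: without it, the other 6 genes had 34.4% in a 3′ UTR, 59.6% in a coding exon and 4.03% in an intron.

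In *Slc1a2*, 3346 of 4115 placed ends (81.3%) lay in the 3′ UTR and 465 in a coding exon. Its transcript with most ends has 9253 nt of 3′ UTR against 1716 nt of coding sequence. Densities are per kb of the union over all transcripts, here 9775 bp of 3′ UTR and 1813 bp of coding exon. On that scale there were 342 ends per kb in the 3′ UTR and 256 in coding exons. In *Glul* the coding exons held 49.7% and the 3′ UTR 44.5% of ends, at 256 and 166 ends per kb, and 97 of its 674 ends were not placed in the gene by sequence. With a mapping quality of at least 30 the 3′ UTR share of *Glul* was 49.2%. In *Aldoc* the coding exons held 82.6% and in *Cst3* 76.2%, with densities of 222 and 436 ends per kb. When the 3′ UTR was read before the coding exons, its share went from 21.2% to 41.7% in *Cst3* and from 16.4% to 22.9% in *Aldoc*. The 3′ UTR of *Aldoc* had 33.6 and that of *Cst3* 212 ends per kb.

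*Gfap* was the other gene with most ends in the 3′ UTR, 73 of 117 (62.4%, interval 53.4 to 70.6). Over the union of its transcripts, 2577 bp of 3′ UTR and 1412 bp of coding exon, the densities were 28.3 and 31.2 ends per kb. The transcript with most ends has 1344 nt of 3′ UTR and 1290 nt of coding sequence, so the closeness of both densities depends on the lengths used. All 144 placed ends of *Apoe* were in a coding exon of some transcript, and 18.1% of them were in a 3′ UTR when that class was read before the coding exons. In *Mbp* 46.2% of ends lay in coding exons and 41.4% in a 3′ UTR. Its intronic share, 11.9% (interval 9.58 to 14.7), was the highest of the 7 genes and stayed under that of all protein-coding genes.

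Intronic ends came from 4 of the 7 genes. *Slc1a2* had 267 of them, 264 on the sense strand, and all lay between the first and last exon of the transcript that held the most ends. *Mbp* had 73, of which 71 were sense. Of these, 48 lay within the span of the transcript with most *Mbp* ends and 25 outside it; the gene also has longer transcripts, known as Golli, that begin far upstream. *Glul* had 5 intronic ends, *Cst3* had 2, and *Gfap*, *Aldoc* and *Apoe* had 0 of 117, 293 and 144.

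**Figure D2:**
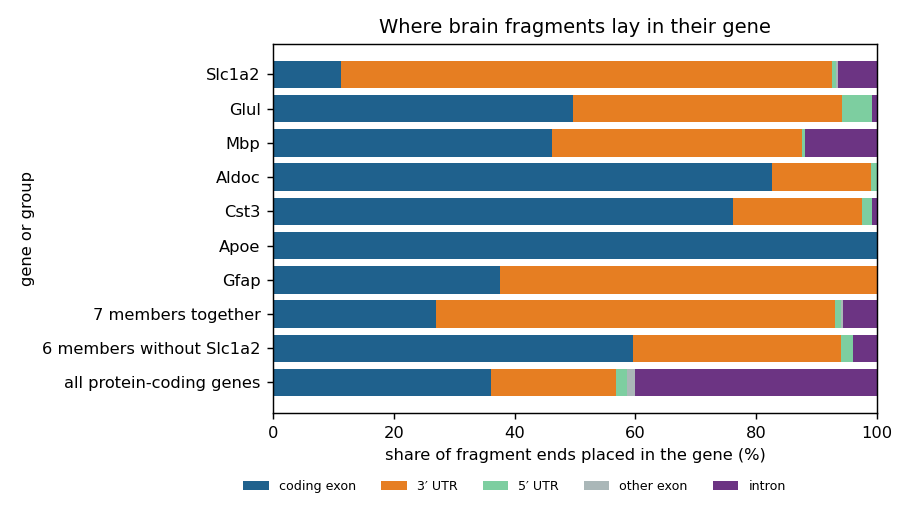
Share of placed fragment ends (%) in coding exon, 3′ UTR, 5′ UTR, other exon and intron for each gene, the 7 genes together, the 6 without *Slc1a2* and all protein-coding genes. The 3′ UTR share runs from 0% in *Apoe* to 81.3% in *Slc1a2*, and introns hold 40.0% of ends over all protein-coding genes against 11.9% or less here.

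Few fragments held exon and intron together. Of 5752 exonic ends, 28 (0.487%) had at least 10 bases outside every exon of the gene. Fragments that crossed a splice junction were 6.85% of placed ends, against 9.91% over all protein-coding genes, and 15.3% in the 6 genes without *Slc1a2*. By gene it was 29.0% in *Aldoc*, 15.3% in *Glul*, 14.4% in *Mbp*, 11.2% in *Cst3* and 10.3% in *Gfap*. It was 2.78% in *Apoe* and 2.77% in *Slc1a2*.

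Along each transcript, ends were counted in windows of 200 nt measured from the stop codon. In *Mbp* the window from -600 to -400, at the start of the coding sequence, held 137 of 503 ends (27.2%), where the median window held 35.5. In *Glul* the fullest window was also early in the coding sequence, from -1200 to -1000, with 110 of 572 ends, and the next was in the 3′ UTR at 1200 to 1400 with 69. In *Aldoc* the windows from -600 to -400 and from -400 to -200 held 53 and 54 of 293 ends.

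*Apoe* and *Cst3* had their fullest window at the end of the coding sequence, from -200 to 0, with 56 of 144 and 92 of 238 ends. In *Gfap* the fullest was in the 3′ UTR at 800 to 1000, with 16 of 112. The 3811 ends on *Slc1a2* were spread over 59 windows with a median of 61, and the fullest, at 5800 to 6000 in the 3′ UTR, held 180 (4.72%). The 3 fullest windows of *Slc1a2* held 11.5% of its ends and those of *Mbp* 56.1%, over transcripts of 11595 and 2186 nt.

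**Figure D3:**
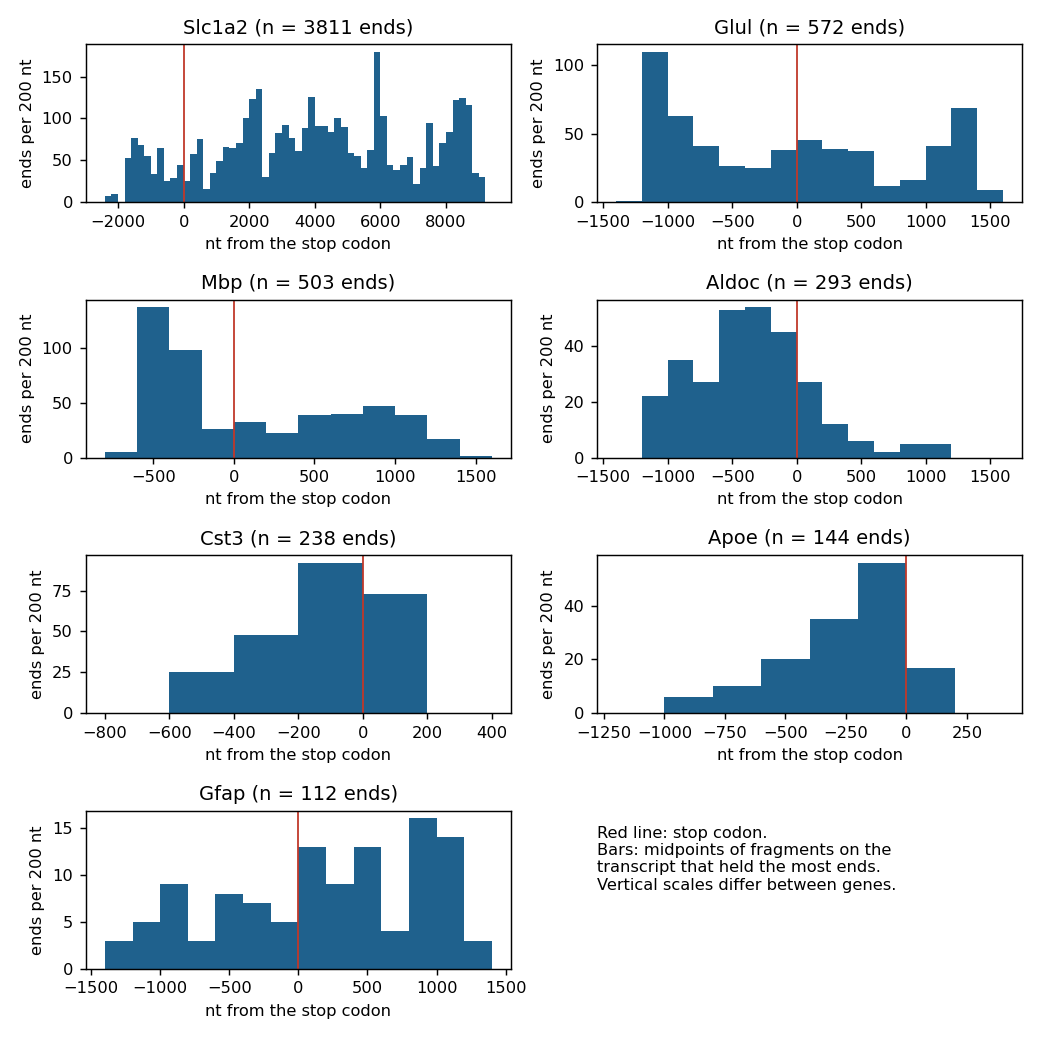
Number of fragment midpoints per 200 nt (vertical axes differ) against the distance in nt from the stop codon (red line, 0) on the transcript that held the most ends of each gene. *Mbp* and *Glul* peak early in the coding sequence, *Apoe* and *Cst3* in the 200 nt before the stop codon, and *Slc1a2* is covered along its 3′ UTR with the fullest window at 5800 to 6000.

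Most pairs had both fragments in the same gene. Of the 3425 pairs, 3145 had both ends inside 1 member and 280 (8.18%, interval 7.30 to 9.14) had a partner outside it, against 12.5% over all protein-coding genes. With positions found by sequence alone the outside share was 4.33%. Most inside pairs are of a kind for which the files do not show the linker, so these are shares of deposited lines and not of ligations known to have taken place. By gene the outside share ran from 5.20% in *Mbp* to 13.4% in *Apoe*, whose interval was 7.66 to 22.4. Without brain 1 it was 4.84% in *Apoe* and 2 of 100 pairs in *Cst3*, against 5.56% in *Cst3* with both libraries. Without brain 2 the share was higher in *Apoe* and in *Cst3* than with both libraries. By sequence alone it was 1.56% in *Mbp*, 2.4% in *Cst3*, 3.09% in *Aldoc*, 3.12% in *Gfap* and 3.87% in *Slc1a2*. On that count it was 8.75% in *Apoe* and 10.4% in *Glul*. That count also takes as outside a pair with both stated ends in the gene when sequence placed 1 fragment elsewhere. In *Glul* 97 of 674 ends were not placed in the gene by sequence, so its higher share there is not a rank of partners. Among 2731 inside pairs with both ends placed by sequence, 2560 had both ends in exons, 150 both in introns and 21 an end in each. Of the pairs with both ends in introns, 114 were in *Slc1a2* and 34 in *Mbp*.

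Both fragments of an inside pair mostly lay in the same class. In *Slc1a2* 1495 of 1844 pairs had both ends in the 3′ UTR, 194 had both in coding exons and 9 had 1 end in each. In *Glul* these numbers were 109, 83 and 10 of 231 pairs, and in *Mbp* 112, 132 and 10 of 293. In *Cst3*, with its short transcript, 41 of 115 pairs had 1 end in a coding exon and 1 in the 3′ UTR.

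The genomic span of inside pairs, from the first to the last base of both fragments, had a median of 206 bp in *Slc1a2*, 244 in *Mbp*, 262 in *Glul* and 930 in *Cst3*. It was over 2000 bp in 12.1% of pairs (interval 10.99 to 13.3) and in 13.5% over all protein-coding genes, and in 20.6% of pairs of the 6 genes without *Slc1a2*. The share was 38.7% in *Mbp*, 21.01% in *Cst3*, 20.1% in *Glul*, 7.95% in *Slc1a2* and 5.08% in *Gfap*. It was 0 of 71 pairs in *Apoe* and 0 of 153 in *Aldoc*. The widest pair spanned 80444 bp, in *Slc1a2*.

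Of the 380 pairs over 2000 bp, 325 had both ends in exons of the transcript with most ends, and 324 of these spanned at most 500 nt of it, with a median of 225 nt. The other 55 had an end in an intron, in another exon or without a placement and were not measured this way. Of 2530 pairs with both ends in exons of the transcript, 10 (0.395%, interval 0.215 to 0.726) spanned over 500 nt, and the median span was 202 nt in *Slc1a2*, 241 in *Mbp* and 204 in *Glul* and *Apoe*. The widest, a pair of 3′ UTR fragments of *Slc1a2*, spanned 5152 nt in gene order and was on 4 lines in both files. The next widest spanned 759 nt in *Slc1a2* and 723 nt in *Mbp*.

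**Figure D4:**
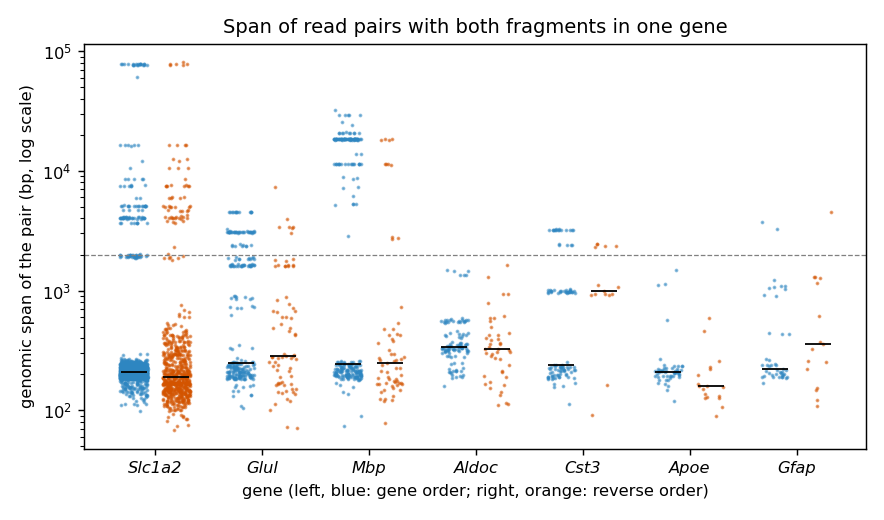
Genomic span (bp, log axis) of each distinct pair with both fragments in 1 gene, with pairs in gene order at left (blue) and in reverse order at right (orange) of each gene name; black marks are medians and the dashed line is at 2000 bp. Gene-order pairs crowd near 200 bp with separate bands where an intron lies between, and *Apoe* and *Aldoc* have no pair above the line.

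The order of the fragments divided the inside pairs into sets that differed in span and in fragment length. In gene order, RNA1 lies upstream of RNA2, as it would in 1 unbroken stretch of RNA, and 2249 pairs (71.5%) were of this kind. In reverse order RNA2 lies upstream, as in the sequences shown above, and 894 (28.4%, interval 26.9 to 30.03) were of this kind, against 27.9% over all protein-coding genes. The reverse share was 31.5% in *Slc1a2*, 62 of 310 pairs in *Mbp* and 12.6% in *Cst3*, with intervals of 29.6 to 33.5, 15.9 to 24.8 and 7.79 to 19.8.

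In gene order, 95.8% of the pairs measured on the transcript spanned 150 to 300 nt (interval 94.9 to 96.6), with a median of 206 nt and a range from the 5th to the 95th percentile of 168 to 260. In reverse order 64.4% did so, with a median of 194 nt and a range of 130 to 427. Both fragments were at least 80 nt long in 99.3% of gene-order pairs, in 22.1% of reverse-order pairs and in 23.6% of pairs with a partner outside the gene. The intervals were 98.9 to 99.6, 19.5 to 24.99 and 18.98 to 28.9. The gene-order pairs thus stood apart from the other kinds in length, while reverse-order and outside pairs had overlapping intervals.

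The deposited lines do not show the linker. None of the 6570 member ends held 12 bases of it in a row, and 1 partner fragment of 18 nt, outside *Slc1a2*, did. Whether a given pair held the linker therefore cannot be seen in these files, and the 2249 gene-order pairs of the 3145 inside pairs are not shown by them to be ligated fragments. Of the reverse-order pairs, 318 (35.6%, interval 32.5 to 38.8) abutted within 5 nt, as in the sequences above, and the share was 35.9% over all protein-coding genes. *Apoe* had 10 of 18 reverse pairs of this kind, *Aldoc* 10 of 44, *Glul* 22 of 73 and *Slc1a2* 245 of 666.

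The shares found in both brain files had intervals that did not overlap between outside and inside pairs. Of outside pairs 28.2% (interval 23.3 to 33.8) were in both, and of inside pairs 65.6% (interval 63.9 to 67.2), which is near the 62.0% over all distinct brain pairs. Reverse-order pairs, at 62.5%, were close to gene-order pairs, at 66.8%. A single line was all there was for 195 of the 280 outside pairs. The most repeated pair of all lay inside *Glul*, with 41 lines, and the most repeated outside pair, of *Slc1a2*, had 12.

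Partners outside the member were of many kinds. Of the 280, 161 lay in a protein-coding gene, 72 had ribosomal sequence (25.7%, interval 20.9 to 31.1, against 27.7% over all protein-coding genes), 27 lay on the mitochondrial chromosome, 11 in another kind of gene and 9 in no gene. Ribosomal partners were 51 for *Slc1a2*, 10 for *Glul*, 4 for *Mbp*, 3 each for *Apoe* and *Aldoc*, 1 for *Cst3* and 0 of 6 for *Gfap*. Of the 72, 49 had a stated position on chromosome 17, mostly at its ribosomal locus, and 23 had one on another chromosome. No pair joined 2 of the 7 genes.

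Recurrent partners, those joined by at least 3 distinct pairs, were found only for *Slc1a2* apart from ribosomal RNA. They were mt-Rnr2, with 9 pairs on 13 lines, and mt-Rnr1, with 5 pairs on 11 lines, which are the large and the small ribosomal RNA of the mitochondrion. The ribosomal locus Rn18s-rs5 had 3 further pairs whose fragments were too short or too different to be called ribosomal by sequence. *Fgf14*, which encodes a growth factor homologue that binds sodium channels, had 3 pairs on 13 lines, all in 1 intron and with starts 2 bp apart, so they are near-copies of 1 pair. The overlapping genes *C030034L19Rik* and *Zfp704* had 3 pairs on 4 lines with the same 36 nt fragment, which sequence did not place.

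Protein-coding partners were mostly of 1 pair each. Where the partner fragment could be placed, 55 of 119 lay in an intron, 35 in a coding exon and 24 in a 3′ UTR, and 113 were sense. Partners in genes of neurons and glia, chosen here after their values were seen, were few. The neuronal kinase gene *Camk2a* was joined to *Slc1a2* by 2 near-identical pairs on 10 lines, to *Apoe* by 1 pair on 3 lines and to *Mbp* by 1 pair on 1 line. *Camk2a* had 1322 distinct pairs itself. *Mobp*, the gene of another myelin protein, was joined to *Mbp* by 1 pair on 2 lines, 1 in each file, with its 3′ UTR against *Mbp* coding sequence. *Map1b*, a gene of the neuron list, was joined to *Mbp* with the same count, 1 pair on 2 lines in both files. *Cpe* of the astrocyte list was joined to *Glul* by 1 pair on 1 line. The files are technical replicates of 1 animal, so presence in both is not independent support for a partner.

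The most repeated outside pair joined the 3′ UTR of *Slc1a2* (RNA1) to a coding exon of *Bcl11b*, the gene of a transcription factor of cortical projection neurons, and it too was chosen after its values were seen. It was on 12 lines over both files, and a second pair with the same *Bcl11b* fragment was on 1 line. The first 30 bases of each fragment are shown because no other outside pair was repeated as often.
Slc1a2, RNA1: attcttctacaaaccacctcaactctttcc
Bcl11b, RNA2: cgatggcgacttccgccaccatgagagcga

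The *Slc1a2* bases lie on the plus strand of GRCm38 at chr2:102787690-102787719 and those of *Bcl11b* on the minus strand at chr12:107916493-107916522. The fragments were 86 and 62 nt long. The authors merged duplicate reads by place and random barcode. Whether the lines left at the same coordinates are separate molecules was not tested.

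In ES indirect the same genes were sought by their deposited name. They had 189 distinct pairs of 1655476, or 114 per 1000000, against 4583 per 1000000 in brain. These rates count unlike mixtures of pairs. In brain 3145 of 3425 pairs lay inside a gene, 2249 of them in gene order and not shown to be ligated. Most pairs in ES indirect had a partner outside the gene. *Apoe* had the most, 89 pairs on 168 lines, which is 53.8 per 1000000 (interval 43.7 to 66.2) against 110 in brain (88.4 to 136). *Glul* had 36 pairs (21.7 per 1000000), *Slc1a2* 24 (14.5), *Mbp* 19 (11.5; 34 pairs by stated position in place of name), *Cst3* 14 (8.46), *Aldoc* 6 (3.62) and *Gfap* 1 (0.604, interval 0.107 to 3.42). These libraries differ in tissue, crosslinker and naming of the ends, and how the rates of all genes compare between them was not counted. Of the *Apoe* pairs, 11 of 82 had an outside partner in brain and 65 of 89 in ES indirect. Per distinct pair of each library, 747404 in brain and 1655476 in ES indirect, outside pairs of *Apoe* were thus rarer in brain. In ES-2, another ES library, *Apoe* stood at 78.9 per 1000000 (64.8 to 96.2), an interval that overlaps that of brain.

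The kind of end in ES indirect differed from gene to gene. In *Apoe* 112 of 113 ends were exonic by the deposited region and 97 were sense. In *Glul* all 49 ends were sense, with 37 in exons and 12 in an intron, and in *Cst3* all 19 were sense with 14 in exons. In *Slc1a2* 27 of 30 ends lay in an intron, 9 were sense and 10 held at least 12 bases of the linker. In *Mbp* 26 of 28 ends lay in an intron and 19 were sense. The exonic ends of *Slc1a2* and *Mbp* there were 3 and 2.

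Most pairs of these genes in ES indirect had a partner outside the gene. *Apoe* had 65 of 89 pairs outside, 40 of them with a ribosomal RNA and 17 with a protein-coding gene. *Glul* had 23 of 36 outside, *Slc1a2* 18 of 24, *Mbp* 10 of 19 and *Cst3* 9 of 14. Inside pairs of *Apoe* and *Glul* had median spans of 180.5 and 188 bp.

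Other markers of the same and other brain cells put the 7 genes in context. Having a brain pair was common: 14998 protein-coding genes had at least 1, with a median of 12. All 16 other oligodendrocyte genes had a brain pair, with a median of 30 distinct pairs, and among them *Cnp* had 105 and *Trf* (transferrin) 103. All 25 other astrocyte genes had one, with a median of 56, and among them *Sparcl1* had 343 and *Cpe* 323. The 18 neuron genes had a median of 190.5, led by *Camk2a* with 1322, *Map1b* with 1061 and *Syt1* with 920. The median of the 7 genes was 162, and *Slc1a2* had more pairs than any gene of the lists.

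Markers of rarer cells were low. Of 12 microglia genes 11 had a brain pair, with a median of 6.5, and among them *Csf1r* had 31 and *P2ry12* 25. The medians were 8 for 6 endothelial genes, led by *Flt1* with 19, *Slco1a4* with 9 and *Pecam1* with 8, and 4 for 5 genes of ependyma and choroid plexus, led by *Ttr* with 107, *Kl* with 16 and *Foxj1* with 4. Of 10 pluripotency genes 4 had a brain pair, at most 5, with *Esrrb* and *Sox2* at 5 and *Nanog* at 2.

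In ES indirect the pluripotency genes led. All 10 pluripotency genes had a pair there, with a median of 110.5. The medians were 19 for the 7 genes, 4.5 for other oligodendrocyte, 14 for other astrocyte and 17 for neuron genes. The median was 29 for endothelial genes. *Cryab*, *Opalin* and *Gpr37l1* had none among the oligodendrocyte and astrocyte lists, and a count of 0 there allows up to 1.81 pairs per 1000000.

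**Figure D5:**
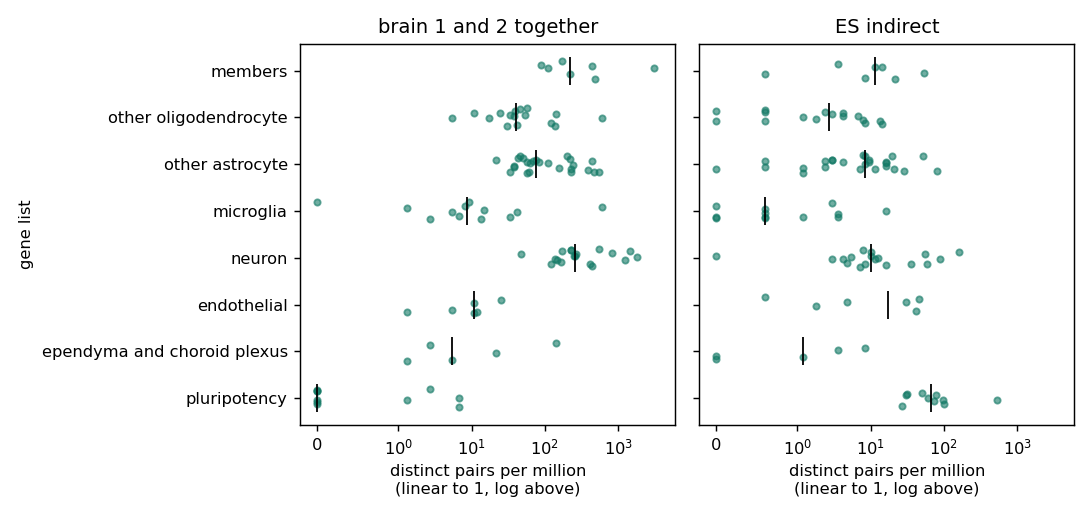
Distinct pairs per 1000000 distinct pairs (linear to 1, log above) for every gene of each list in both brain libraries together (left) and in ES indirect (right); black marks are list medians. In brain the 7 genes (members) and the neuron genes lie furthest right and the pluripotency genes at or near 0, and in ES indirect the pluripotency genes lie furthest right.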

How the data were processed

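Lines of the deposited files are read pairs, not values: a line gives where RNA1 and RNA2 lie, their strand, their bases and the name given to each. The authors, per the labels and methods, merged duplicate reads by place and random barcode, located the linker, split the chimera and kept pairs with both fragments uniquely placed; the submitters' processing notes name TopHat2 2.1.1 and mm9 (NCBIM37). The stated brain positions are those of GRCm38, and the deposited brain names were not used.

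Genes were found by RefSeq GRCm38 spans and by placing every brain fragment on NCBIM37 with minimap2 2.31 (preset splice:sr, accepting a mapping quality from 10 up). Ends were classed over all GENCODE vM1 transcripts in the order coding exon, 3′ UTR, 5′ UTR, other exon, intron, when placed in the gene by sequence. Of 6570 member ends, 471 were not. A fragment was called ribosomal when at least 50% of its 16-base words occurred at least 20 times in fragments annotated as ribosomal in ES-1. Of 1400 simulated fragments of the 7 genes, all 80 nt long, 98.6% were placed in their gene and class. Shorter fragments, which are common in reverse-order and outside pairs, were not simulated. ES indirect was read by deposited name. Shares carry 95% Wilson intervals, which for ends treat both ends of a pair as independent, and a count of 0 allows 3 counts of the total. No test was made. The genes named beside the 7 are partners joined by at least 3 distinct pairs, at most 5 a gene, and the 3 genes of each list with most brain pairs, of which some are not reported here. The members and lists were chosen with earlier results of these data known. Alternatives were the unit counted, each library left out, placement, mapping quality, strand, class order, distance and fragment length.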

Additional observations from a re-analysis of the deposited data

Results flagged for a closer look

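The same genes were also named in 3 libraries that enter no comparison here but that of the *Apoe* rate, and how many of all genes were named there was not counted. *Gfap* had 1, 1 and 2 pairs in ES-1, ES-2 and MEF. *Apoe* had 142 distinct pairs in ES-1, 98 in ES-2 and 6 in MEF (embryonic fibroblasts), and in ES-1 147 of 152 exonic ends were sense. *Mbp* had 24, 71 and 23 pairs, and in ES-2 11 of its 71 ends were sense and 50 lay in an intron. *Slc1a2* had 10, 24 and 5 pairs, and in ES-1 all 11 ends lay in an intron and 2 were sense. *Cst3* was named in 15 of ES-1 and 9 of ES-2, *Glul* had 13 in ES-1 and *Aldoc* had 8 in ES-2. The other counts of these 3 genes were at most 3. These libraries hold 2310134, 1241787 and 373978 distinct pairs and differ in depletion and fragment size, and no difference between them was tested.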

How the results depend on the processing

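Counting every line instead of distinct pairs raised the brain count from 3425 to 8733, the ES indirect count from 189 to 319 and that of all other lists from 11173 to 26315. It moved the 3′ UTR share to 70.9%, the sense share to 99.4%, the share over 2000 bp to 10.01% and the outside share to 4.81%. The outside share lay between 5.63% and 7.28% with 1 brain library left out, and was 4.33% with positions found by sequence alone, where partners that sequence did not place are not counted as outside. A pair with both stated ends in the gene counts as outside there when sequence placed 1 fragment elsewhere. Reading 3′ UTR before coding exon gave 68.9% of ends in the 3′ UTR, with 41.7% in *Cst3* and 22.9% in *Aldoc*. With 1 transcript per gene, the 3′ UTR share was 36.5% in *Mbp* and 5.56% in *Apoe*. By stated position in place of name, *Mbp* had 34 and *Gfap* 2 pairs in ES indirect. Without 1 of the libraries the brain count was 2776 or 2791, and for the 7 genes together the shares of 3′ UTR ends, sense ends and wide pairs stayed within their intervals, while the sense share of *Cst3* was 100% without brain 1. No paired analysis was possible because the brain libraries are technical replicates of 1 animal and no result comes from a test. *Gfap*, *Apoe* and all outside partners rest on few pairs, which limits their shares.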
